A study of Mus musculus with 9 samples.

Results

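Interferon-stimulated genes, the interferon receptors and the sensors of foreign nucleic acid were followed as 46 genes listed by name in RNA-seq counts of CD4+ T cells. All 46 were found among the 39017 gene IDs of the count table, and 44 passed the filter on low counts that left 14693 genes in the test. The study set CD4+ T cells from lymph nodes of male C57BL/6 mice that had lost the histone H3K27 demethylase Kdm6a (also called UTX) against cells that had kept it. All 9 samples carried the floxed/y Kdm6a allele, that is, 1 floxed copy on the single X chromosome. The 5 WT samples (numbered 1, 3, 4, 5 and 9) had no CD4-Cre transgene (-/-), and the 4 cKO samples (2, 6, 7 and 8) had 1 copy of it (+/-), so the presence of Cre and the loss of Kdm6a cannot be told apart. CD4-Cre is driven by regulatory sequence of the Cd4 gene and acts from the stage in the thymus at which Cd4 comes on, before CD4+ and CD8+ T cells part. The mice's age is not given in the sources used here. A stimulation is named for the table but not in the labels of any sample, so the state of the cells is not known here. No label ties each sample to a mouse of its own, so p-values measure only how far these samples spread, and that spread may be technical.

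Kdm6a itself, the check of the labels, was lower in every cKO sample. Its levels were 62.4, 60.04, 63.8, 63.4 and 63.8 CPM in WT 1, 3, 4, 5 and 9 and 41.8, 42.7, 41.5 and 44.8 CPM in cKO 2, 6, 7 and 8, where CPM is a gene's counts relative to its library's total, with the totals scaled by the TMM method. Its mean fell by 31.9%, with a log2 fold change of -0.55 (SE 0.04, edgeR adjusted p = 2.89e-05). The floxed exon is not named in the labels, and a count over the whole gene can include reads from exons that stay in it. The source of the Kdm6a reads left in cKO was not tested. Each library held 20587482 to 26387488 counts. The summed level of 8 CD4+ T cell markers was 3057 to 3247 CPM in WT and 3026 to 3216 CPM in cKO. Of the 8, 2 were called higher (25%, against 7.0% of all genes) and 4 lower (50%, against 8.82%). Cd4 and Cd5 were the higher genes, and Cd3d, Cd3g, Lck and Lat the lower ones. Other cell types were low: 2 CD8 markers summed to 11.9 to 15.1 CPM in WT and 15.1 to 19.1 CPM in cKO (Cd8b1 was called higher, edgeR adjusted p = 0.0296), and 6 B cell markers to 3.02 to 5.12 and 2.50 to 4.27 CPM (Cd79b was called lower without overlap, log2 fold change -0.91, SE 0.19, edgeR adjusted p = 0.0104). In bulk samples, fewer cells of a type and less RNA per cell cannot be told apart.

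Interferons are secreted proteins that warn cells of infection. Type I interferons act through the paired receptor chains Ifnar1 and Ifnar2, and type II interferon (Ifng) through Ifngr1 and Ifngr2. The receptors use Jak kinases to activate Stat proteins, which enter the nucleus with Irf9 or as dimers and turn on interferon-stimulated genes at short DNA elements, the interferon-stimulated response element (ISRE) and the gamma-activated site (GAS). In T cells the pathway is known for tonic, low-level activity in the absence of infection and for modulating activation and survival.

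The promoters of the members were searched for both elements. RefSeq promoter windows on build GRCm38.p6, running from 250 bases before to 50 bases after a transcription start, were held for 35 of the 46 members, in 43 windows. No window was held for Mx1, Mx2, Oas2, Usp18, Ifi204, Rtp4, Zbp1, Dhx58, Parp9, Parp14 or Tor3a. The letters GAAANNGAA, a core of the ISRE searched on both strands, occurred in 20 of the 43 windows (46.5%), against 2812 of all 32851 windows (8.56%). By gene, 19 of 35 members held it (54.3%), against 2638 of 27025 genes (9.76%). The GAS core TTCNNNGAA, searched on both strands too, occurred in 9 of the 43 windows (20.9%) and in 8.3% of all windows. By role, none of the 4 receptors held the ISRE core, whereas 3 of 3 sensors with a window, 3 of 4 Ifit genes, 3 of 5 Oas genes and 6 of 9 other antiviral effectors did. It was in 1 of 5 other interferon-induced genes, both TRIM genes, 1 of 2 genes of Isg15 conjugation and none of 1 of ADP-ribosylation. A match of letters is a description of the sequence and not a bound site.

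The 250 bases before the start are shown for 5 members that stand for what was seen, 5′ to 3′ on the gene's strand, in lower case with each match to the ISRE core in capitals. Isg15 (chr4:156200819-156201068, minus strand) and Ifit1 (chr19:34640639-34640888, plus strand) each held 3 matches and stand for the classical targets, neither of which passed the test below. Ifih1 (chr2:62646256-62646505, minus strand, 1 match) and Bst2 (chr8:71537473-71537722, minus strand, 2 matches) were called higher in cKO. Matches that share bases were counted apart. Those of Isg15 start at -78, -72 and -66 from the transcription start and form 1 run. In Ifit1 those at -109 and -103 share bases, and the match at -84 stands apart. In Bst2 those at -130 and -124 share bases. Isg20 (chr7:78913174-78913423, plus strand), the member with the largest called fall, held no match here or in the other windows of the gene.
Isg15: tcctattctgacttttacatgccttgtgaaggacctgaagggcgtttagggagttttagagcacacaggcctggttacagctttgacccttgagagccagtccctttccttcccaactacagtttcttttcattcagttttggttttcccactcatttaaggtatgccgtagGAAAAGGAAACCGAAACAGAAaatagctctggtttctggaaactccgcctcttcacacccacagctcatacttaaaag
Ifit1: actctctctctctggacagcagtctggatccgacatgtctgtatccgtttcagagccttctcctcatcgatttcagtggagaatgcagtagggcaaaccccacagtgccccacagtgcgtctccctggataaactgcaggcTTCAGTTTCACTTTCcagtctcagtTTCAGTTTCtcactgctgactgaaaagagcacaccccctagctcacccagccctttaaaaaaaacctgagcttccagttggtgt
Ifih1: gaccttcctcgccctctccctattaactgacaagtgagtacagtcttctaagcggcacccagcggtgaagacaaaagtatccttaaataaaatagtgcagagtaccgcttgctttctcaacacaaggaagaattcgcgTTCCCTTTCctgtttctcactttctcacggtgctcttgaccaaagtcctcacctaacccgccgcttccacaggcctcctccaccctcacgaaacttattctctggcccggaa
Bst2: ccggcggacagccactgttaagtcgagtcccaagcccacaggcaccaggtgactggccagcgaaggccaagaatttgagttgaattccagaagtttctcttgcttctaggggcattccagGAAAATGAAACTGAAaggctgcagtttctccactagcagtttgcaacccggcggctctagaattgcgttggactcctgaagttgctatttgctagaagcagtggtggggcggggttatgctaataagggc
Isg20: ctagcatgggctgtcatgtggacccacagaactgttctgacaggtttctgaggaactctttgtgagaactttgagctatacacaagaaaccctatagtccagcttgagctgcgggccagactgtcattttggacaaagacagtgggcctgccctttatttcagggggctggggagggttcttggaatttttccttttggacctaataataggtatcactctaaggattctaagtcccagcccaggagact
The Isg20 and Bst2 sequences each hold 1 match to the GAS core, which was not put in capitals for itself. In Bst2 it starts at -136, and its end shares bases with the ISRE core at -130, so that part is in capitals. Of the 9 members called below, 6 had a window. The ISRE core was in those of Ifih1, Ddx58 (within its full window) and Bst2, and not in those of Isg20, Ifnar1 and Ifngr1, so it was present among members called in each direction.

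**Figure D1:**
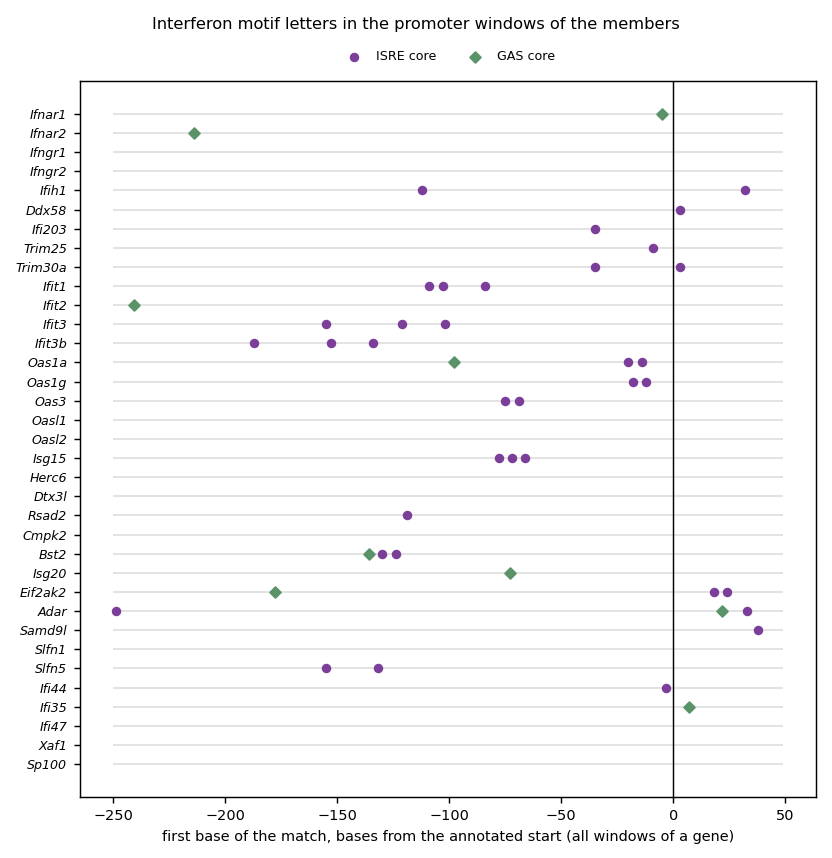
Matches to the ISRE core and the GAS core in the promoter windows of members by role, plotted as distance in bases from the transcription start. The receptors hold no ISRE core, and 19 of the 35 members with a window hold at least 1.

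The list as a whole did not move in 1 direction between the genotypes. With edgeR's quasi-likelihood test and a Benjamini-Hochberg adjusted p below 0.05 over all 14693 genes, 9 of the 44 tested members were called (20.5%), against 15.8% of all genes. Ifih1, Bst2, Parp14 and Mx2 were higher in cKO, 9.09% of members against 7.0% of all genes. Isg20, Ifnar1, Ddx58, Zbp1 and Ifngr1 were lower, 11.4% of members against 8.82% of all genes. The remaining 35 did not pass. At an unadjusted p below 0.05, 10 members were higher and 8 lower. The share of all genes at that threshold is not given here, so these counts have no background beside them. The genotypes did not overlap in 5 members, higher for Ifih1 and Mx2 and lower for Isg20, Ddx58 and Ifnar1 (11.4%, against 15.9% of all genes).

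The median log2 fold change of the members was 0.09, beside 0.001 over all genes, and 27 of 44 were above 0. Their median absolute log2 fold change was 0.24, beside 0.11. Of the 14 members with a mean under 10 CPM, 13 had a positive log2 fold change (median 0.27), and 1, Mx2, was called. The positive count rested on cKO 2: without that library it was 8 of 14 (median 0.04), and with any other library left out it was 10 to 14. Of the 30 members at 10 CPM or more, 14 were positive (median -0.06), and 8 were called. Over all genes under 10 CPM, 53.6% were positive, with a median of 0.02. The spread between samples was wide: the SD of log2 CPM within a genotype had a median of 0.27 over the members and 0.11 over all genes. Among genes at 10 CPM or more it was 0.19 for members and 0.08 for all genes.

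**Figure D2:**
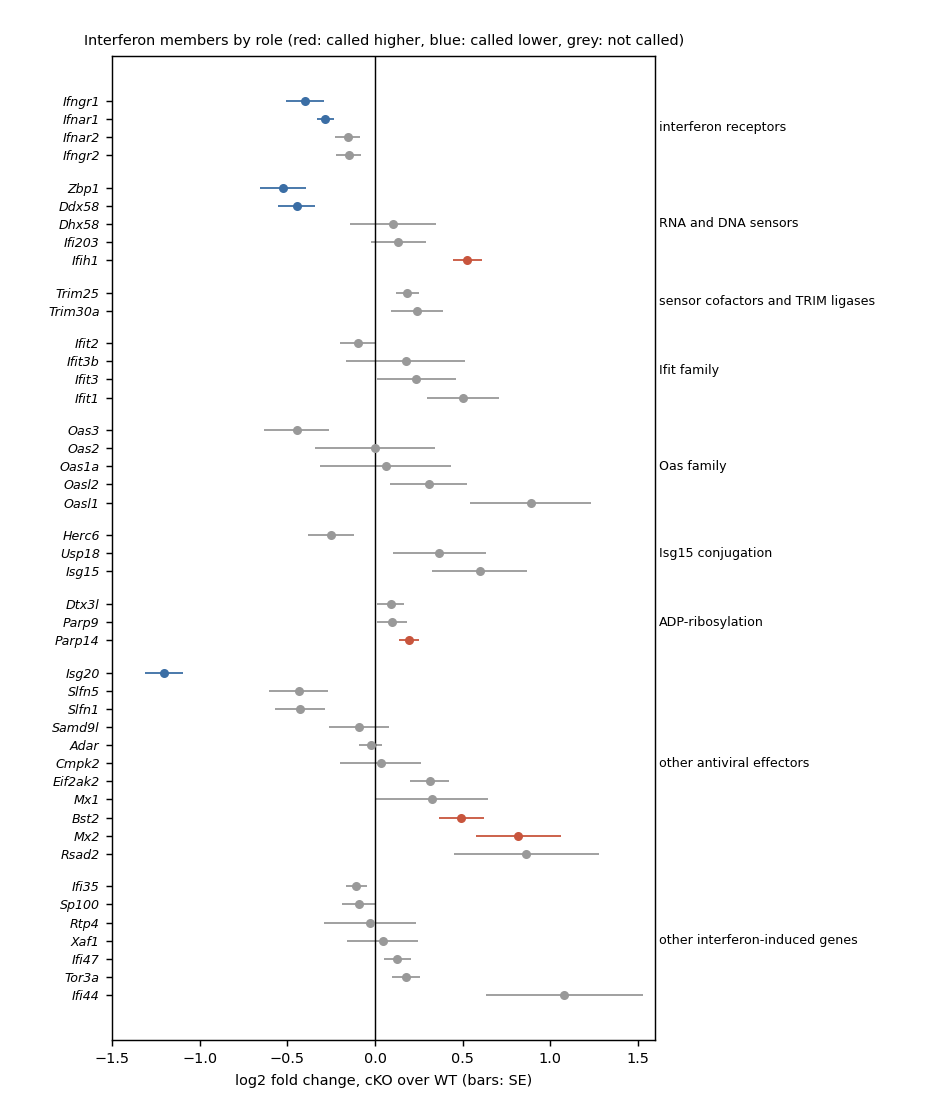
Log2 fold change of cKO over WT with its standard error for the 44 tested members, ordered by role, with called members marked. Isg20 lies lowest at -1.21, and the 4 higher and 5 lower calls are spread over 4 roles.

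The spread had an order by library. WT 4 and WT 5 were the highest pair of WT samples for 35 of the 44 members (79.5%), an order seen in 10.03% of all genes. Among the cKO samples, cKO 2 was the highest for 36 members (81.8%), against 27.3% of all genes, and cKO 6 the lowest for 26 (59.1%), against 28.01%. WT 1 was the lowest WT sample for 30 members (68.2%), against 25.7%. These orders were picked after the values were seen and carry no test. As a mean over the 44 members of log2 CPM relative to each gene's own mean, the libraries stood at -0.33, -0.20, 0.25, 0.28 and -0.18 in WT 1, 3, 4, 5 and 9 and at 0.37, -0.14, 0.06 and -0.11 in cKO 2, 6, 7 and 8. The genotype means were -0.04 ± 0.28 in WT (SD, n = 5) and 0.05 ± 0.23 in cKO (SD, n = 4), and the ranges overlapped. Over the 14 members under 10 CPM the range was wider, from -0.70 in WT 1 to 0.81 in cKO 2.

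**Figure D3:**
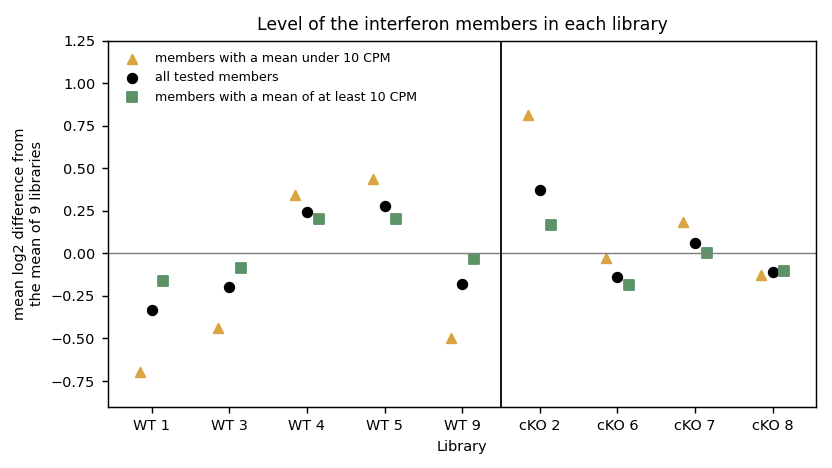
Level of the members in each library, as the mean over members of log2 CPM relative to each gene's mean over the 9 samples, for all 44 members (circles), those with a mean under 10 CPM (triangles) and the others (squares). Over all members the WT libraries reach from -0.33 to 0.28 and the cKO libraries from -0.14 to 0.37, so that the genotypes overlap.

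**Figure D4:**
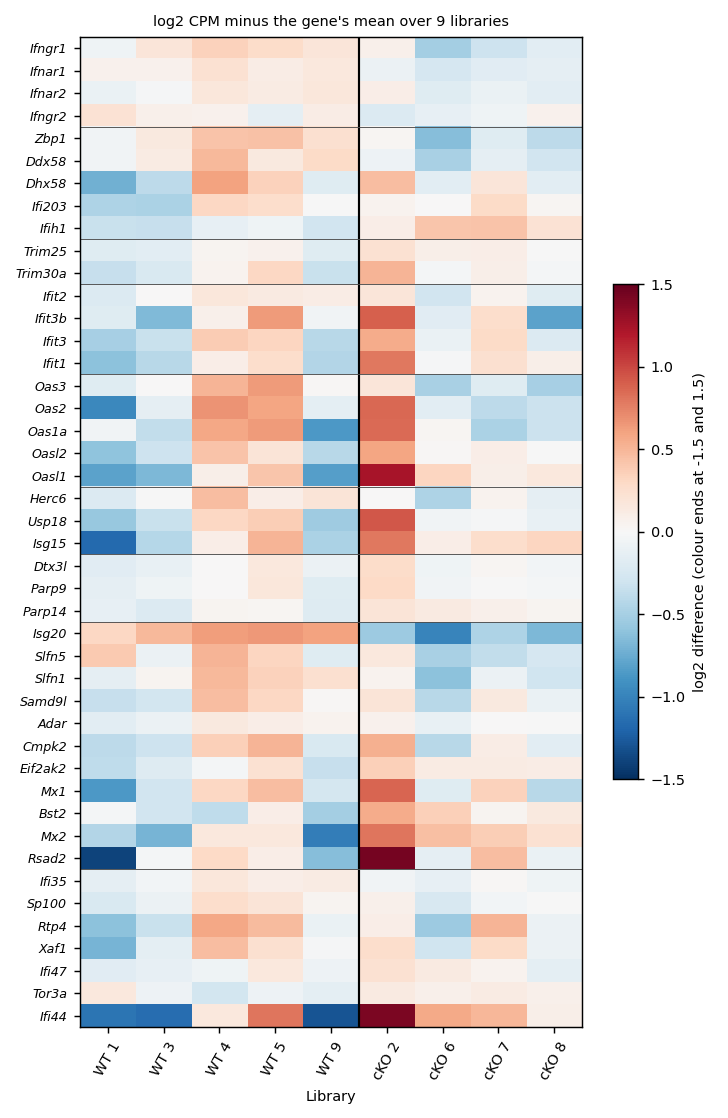
Log2 CPM of the 44 tested members relative to each gene's mean over all samples, in rows by role and columns by library. WT 4, WT 5 and cKO 2 are high across most roles, and WT 1 and cKO 6 are low.

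The calls followed this order in part. Without cKO 2, 1 member was called higher (Ifih1) and 9 lower: Oas3, Slfn1, Slfn5 and Ifnar2 joined the 5 lower members, and the median fell to -0.04. Without WT 5, 8 were higher and 4 lower: Isg15, Ifi44, Trim25 and Eif2ak2 joined the 4 higher members, and Ifngr1 was lost. Over all genes, 1028 were called higher and 1296 lower with every library in the test. The counts were 977 and 1202 without cKO 2 and 870 and 1132 without WT 5. Isg20, Ifih1 and Ifnar1 stayed called, in the same direction, under each of the 17 alternative settings, which included leaving out each library. Among the ligands, RNA of interferon genes was nearly absent. Of 17 interferon genes found in the table, 13 had no count in any sample, Ifnb1 among them, and Ifng alone passed the filter. Ifng stood at 3.02, 1.07, 0.529, 0.992 and 0.611 CPM in WT 1, 3, 4, 5 and 9 and 3.37, 2.07, 1.49 and 1.43 CPM in cKO 2, 6, 7 and 8, and the genotypes overlapped (log2 fold change 0.73, SE 0.46, edgeR adjusted p = 0.306). The sample with the most Ifng, cKO 2, was the one with the highest member level, whereas WT 1 had the most Ifng and the lowest member level of the WT samples, and WT 4 had the least Ifng of all 9.

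The type I receptor chain Ifnar1 (ENSMUSG00000022967, chr16:91485238-91507441 on mm10) had all cKO samples below all WT samples. Its levels were 123, 124, 139, 128 and 133 CPM in WT 1, 3, 4, 5 and 9 and 112, 99.7, 105 and 108 CPM in cKO 2, 6, 7 and 8. The means were 129 ± 6.59 CPM in WT (SD, n = 5) and 106 ± 5.06 CPM in cKO (SD, n = 4), a log2 fold change of -0.28 (SE 0.05, edgeR adjusted p = 0.00325). Its partner Ifnar2 did not pass the test, at 53.7, 56.7, 64.6, 62.5 and 64.7 CPM in WT and 61.4, 50.5, 53.5 and 51.3 CPM in cKO. The Ifnar2 groups overlapped, with cKO 2, at 61.4 CPM, among the WT samples (log2 fold change -0.16, SE 0.07, edgeR adjusted p = 0.165), and without cKO 2 it was called lower (adjusted p = 0.0471).

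The ligand-binding chain of the type II receptor, Ifngr1 (ENSMUSG00000020009, chr10:19591949-19610229), was also lower in cKO, at 70.8, 83.6, 93.8, 89.1 and 83.6 CPM in WT 1, 3, 4, 5 and 9 and 77.6, 51.8, 59.5 and 65.97 CPM in cKO 2, 6, 7 and 8. Here cKO 2 was above WT 1, and the other 3 cKO samples were below all WT samples. The means were 84.2 ± 8.62 CPM in WT (SD, n = 5) and 63.7 ± 10.9 CPM in cKO (SD, n = 4), a log2 fold change of -0.40 (SE 0.11, edgeR adjusted p = 0.0288). The call was lost without WT 3, 4, 5 or 9 or without cKO 6, 7 or 8, with adjusted p of at most 0.0779. The signalling chain Ifngr2 was 47.4, 42.9, 42.6, 37.2 and 44.1 CPM in WT and 35.4, 37.4, 38.99 and 42.8 CPM in cKO and overlapped between genotypes (log2 fold change -0.15, SE 0.07, edgeR adjusted p = 0.181). All 4 receptors had a negative log2 fold change, and 2 of 4 passed, where 8.82% of all genes were called lower. Ifnar1 and Ifngr2 lie on chromosome 16 with 39630 bases between them. Per kilobase of exon, the WT level was highest for Ifngr1 (29.6 CPM per kb), then Ifnar1 (21.8), Ifnar2 (18.2) and Ifngr2 (11.4).

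Among the cytosolic RNA sensors, the RIG-I-like helicases went in different directions. Ifih1, which encodes MDA5, a sensor of long double-stranded RNA (ENSMUSG00000026896, chr2:62595798-62646255), was higher in every cKO sample than in any WT sample. Its levels were 25.4, 25.1, 29.2, 30.5 and 26.2 CPM in WT 1, 3, 4, 5 and 9 and 34.3, 42.8, 43.03 and 37.03 CPM in cKO 2, 6, 7 and 8. The means were 27.3 ± 2.43 CPM in WT (SD, n = 5) and 39.3 ± 4.33 CPM in cKO (SD, n = 4), or 1.44-fold, a log2 fold change of 0.53 (SE 0.08, edgeR adjusted p = 0.00245). The order by library held here only in part. WT 4 and WT 5 were again the highest WT samples, but cKO 2, the highest cKO sample for most members, was the lowest cKO sample for Ifih1.

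Ddx58, which encodes RIG-I, a sensor of short RNA with a 5′ triphosphate (ENSMUSG00000040296, chr4:40203773-40239828), was lower in cKO. It was 59.3, 67.2, 86.1, 67.99 and 75.3 CPM in WT 1, 3, 4, 5 and 9 and 58.4, 43.8, 56.2 and 50.5 CPM in cKO 2, 6, 7 and 8. The groups were next to each other without overlap, with cKO 2 at 58.4 CPM and WT 1 at 59.3 CPM on either side of the gap. The means were 71.2 ± 10.1 CPM in WT (SD, n = 5) and 52.2 ± 6.53 CPM in cKO (SD, n = 4), a log2 fold change of -0.45 (SE 0.11, edgeR adjusted p = 0.0179), and it did not pass once cKO 6 or cKO 8 was left out (adjusted p of at most 0.0547). Dhx58, the regulatory helicase LGP2, was 9.403 CPM on average in WT and 10.1 in cKO and did not pass (log2 fold change 0.10, SE 0.25, edgeR adjusted p = 0.813).

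Zbp1, a sensor of Z-form nucleic acid that can start cell death (ENSMUSG00000027514, chr2:173206612-173218923), was lower in cKO at 131, 151, 183, 185 and 162 CPM in WT 1, 3, 4, 5 and 9 and 140.1, 87.6, 120.4 and 104 CPM in cKO 2, 6, 7 and 8. Only cKO 2 reached into the WT range, above WT 1. The means were 163 ± 22.7 CPM in WT (SD, n = 5) and 113 ± 22.5 CPM in cKO (SD, n = 4), a log2 fold change of -0.53 (SE 0.13, edgeR adjusted p = 0.0218), which did not pass once WT 4, cKO 6 or cKO 8 was left out (adjusted p of at most 0.0676). Of the Ifi200 family of DNA-binding proteins, Ifi203 was 117 CPM on average in WT and 128 in cKO and did not pass (log2 fold change 0.13, SE 0.16, edgeR adjusted p = 0.609). Ifi204 had 2, 1, 1, 2 and 1 reads in WT 1, 3, 4, 5 and 9 and 3, 3, 5 and 4 reads in cKO 2, 6, 7 and 8. It was below the filter and was not tested.

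The ubiquitin ligase Trim25, which acts on RIG-I, and Trim30a, which dampens inflammatory signalling, did not pass by edgeR. At an unadjusted p below 0.05, Trim25 was higher, and neither DESeq2 nor limma-voom called any. Trim25 was 146, 148, 169, 173 and 145 CPM in WT and 194, 174, 176 and 165 CPM in cKO (log2 fold change 0.18, SE 0.07, edgeR adjusted p = 0.0805), and it was called higher without WT 5 (adjusted p = 0.0415). Trim30a was 118, 128, 156, 187 and 119.7 CPM in WT and 214, 147, 160.5 and 147 CPM in cKO (log2 fold change 0.24, SE 0.15, edgeR adjusted p = 0.296). In both genes the groups overlapped, and cKO 2 was the highest of the 9 samples.

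The Ifit proteins bind viral RNA and block its translation, and none of the 4 Ifit genes passed by edgeR. Ifit1 was higher at an unadjusted p below 0.05, and neither DESeq2 nor limma-voom called any. Ifit2, the most abundant, was 74.4, 86.1, 96.3, 94.1 and 92.8 CPM in WT 1, 3, 4, 5 and 9 and 97.2, 70.03, 88.7 and 75.4 CPM in cKO 2, 6, 7 and 8. Its groups overlapped (log2 fold change -0.10, SE 0.10, edgeR adjusted p = 0.535). Ifit1 was 8.53, 9.75, 14.1, 15.7 and 9.66 CPM in WT and 22.7, 12.9, 15.5 and 13.95 CPM in cKO (log2 fold change 0.50, SE 0.21, edgeR adjusted p = 0.121), with cKO 2 above all other samples and WT 4 and WT 5 within the cKO range. Ifit3 and Ifit3b had log2 fold changes of 0.24 and 0.17, and the 2 share 51.2% of the 50-base stretches of Ifit3, so that reads may have been split between them. The 4 genes lie close together on chromosome 19.

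Active Oas enzymes sense double-stranded RNA and make 2-5A, the activator of RNase L. None of the 5 tested genes of the family, with the Oas-like genes Oasl1 and Oasl2 among them, passed by edgeR. At an unadjusted p below 0.05, Oasl1 was higher and Oas3 lower, and neither DESeq2 nor limma-voom called any. Oas3 was 20.2, 23.2, 32.7, 35.7 and 23.3 CPM in WT and 26.1, 16.4, 20.3 and 16.2 CPM in cKO (log2 fold change -0.45, SE 0.19, edgeR adjusted p = 0.128), with cKO 2 inside the WT range, and it was called lower without cKO 2 (adjusted p = 0.0481). The Oas-like gene Oasl2 was 2.67, 3.31, 5.56, 4.72 and 3.05 CPM in WT and 6.24, 4.18, 4.42 and 4.11 CPM in cKO (log2 fold change 0.31, SE 0.22, edgeR adjusted p = 0.37). Its highest sample was cKO 2, and the other 3 cKO samples lay within the WT range. Oas1a, Oas2 and Oasl1 had log2 fold changes of 0.06, 0.00068 and 0.89. Oas1g had 1 read in all 9 samples together, and 57.6% of the 50-base stretches of Oas1a are shared with it.

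Isg15 is a ubiquitin-like protein that is joined to others by ligases such as Herc6 and taken off by Usp18, which also restrains the type I receptor. None of the 3 genes passed by edgeR. Isg15 was higher at an unadjusted p below 0.05, and neither DESeq2 nor limma-voom called any. Herc6 was 23.5, 27.01, 37.3, 29.04 and 31.1 CPM in WT and 27.2, 19.6, 28.05 and 24.7 CPM in cKO (log2 fold change -0.25, SE 0.13, edgeR adjusted p = 0.223). Usp18 was 6.47, 7.64, 12.0, 12.5 and 6.64 CPM in WT and 18.5, 9.32, 9.56 and 8.90 CPM in cKO (log2 fold change 0.37, SE 0.26, edgeR adjusted p = 0.379). In Usp18, cKO 2 was the highest of all samples and the other 3 cKO samples were within the WT range. Isg15, whose promoter is printed above, spanned 3.72 to 12.1 CPM in the WT samples and 9.11 to 14.8 CPM in cKO (log2 fold change 0.60, SE 0.27, edgeR adjusted p = 0.157), and it was called higher without WT 5 (adjusted p = 0.0406).

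Parp14, an ADP-ribosyltransferase of interferon and interleukin 4 responses (ENSMUSG00000034422, chr16:35832874-35871544), was called higher in cKO by a small margin. It was 275, 259.6, 308, 304 and 261 CPM in WT 1, 3, 4, 5 and 9 and 339.8, 327, 315 and 306 CPM in cKO 2, 6, 7 and 8. WT 4, at 308 CPM, was above cKO 8, at 306 CPM. The means were 281 ± 23.1 CPM in WT (SD, n = 5) and 322 ± 14.5 CPM in cKO (SD, n = 4), a log2 fold change of 0.20 (SE 0.06, edgeR adjusted p = 0.042). That call was lost with 1 surrogate variable and without WT 1, 3 or 9 or any single cKO sample, with adjusted p of at most 0.104. Parp9 and its partner Dtx3l, an E3 ligase, had log2 fold changes of 0.10 and 0.09 and did not pass. Those 2 genes overlap each other on opposite strands of chromosome 16.

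Of the 11 other antiviral effectors, 1 was lower and 2 were higher, where 8.82% of all genes were called lower and 7.0% higher. Isg20, an exonuclease that degrades single-stranded RNA (ENSMUSG00000039236, chr7:78913424-78920396), fell by 56.7%, more than any other called member. It was 17.1, 19.2, 21.3, 21.7 and 20.96 CPM in WT 1, 3, 4, 5 and 9 and 9.36, 6.88, 9.94 and 8.59 CPM in cKO 2, 6, 7 and 8. The highest cKO sample, at 9.94 CPM, was well below the lowest WT sample, at 17.1 CPM, and the ranking of WT 4, WT 5 and cKO 2 seen in other members put no sample across the gap. The means were 20.05 ± 1.91 CPM in WT (SD, n = 5) and 8.69 ± 1.33 CPM in cKO (SD, n = 4), a log2 fold change of -1.21 (SE 0.11, edgeR adjusted p = 0.000131). The log2 fold change lay between -1.28 and -1.11 over all 17 alternatives, with adjusted p of at most 0.00109.

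Bst2, or tetherin, which holds budding virus particles at the cell surface (ENSMUSG00000046718, chr8:71534255-71537456), was higher in cKO at 55.0, 45.95, 43.0, 59.9 and 39.2 CPM in WT 1, 3, 4, 5 and 9 and 81.9, 71.6, 57.5 and 62.1 CPM in cKO 2, 6, 7 and 8. WT 5 was above cKO 7, and otherwise the groups were apart. The means were 48.6 ± 8.59 CPM in WT (SD, n = 5) and 68.3 ± 10.8 CPM in cKO (SD, n = 4), a log2 fold change of 0.49 (SE 0.13, edgeR adjusted p = 0.0265). The call was lost with the robust fit and without WT 3, 4 or 9 or cKO 2 or 6 (adjusted p of at most 0.0739). Bst2 also marks plasmacytoid dendritic cells, the main makers of type I interferon. The 5 other markers of that cell type on the list summed to 36.4 to 47.2 CPM in WT and 34.2 to 40.7 CPM in cKO, nearly all of it Pacsin1. Siglech averaged 0 CPM in WT and 0.0209 CPM in cKO, and Klk1 was at 0 in all samples. Cox6a2 averaged 0.0451 CPM in WT and 0.109 CPM in cKO, the same direction as Bst2, and overlapped between the genotypes. Of the 5, only Pacsin1 and Ccr9 were tested, and neither passed. Pacsin1 overlapped between the genotypes (log2 fold change -0.16, SE 0.08, edgeR adjusted p = 0.21). Ccr9 was low, at 0.659 to 1.37 CPM in WT and 0.253 to 0.626 CPM in cKO. It was lower in cKO without overlap, the opposite direction to Bst2 (log2 fold change -1.07, SE 0.34, edgeR adjusted p = 0.0571).

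Mx2, a dynamin-like antiviral GTPase (ENSMUSG00000023341, chr16:97535308-97560900), was low in all samples and higher in cKO. It was 1.67, 1.37, 2.56, 2.55 and 1.07 CPM in WT 1, 3, 4, 5 and 9 and 4.05, 3.15, 2.98 and 2.68 CPM in cKO 2, 6, 7 and 8. The lowest cKO sample, at 2.68 CPM, was just above the highest WT samples, WT 4 and WT 5 at 2.56 and 2.55 CPM. The means were 1.84 ± 0.682 CPM in WT (SD, n = 5) and 3.21 ± 0.588 CPM in cKO (SD, n = 4), a log2 fold change of 0.82 (SE 0.24, edgeR adjusted p = 0.0418). That call was lost with 1 surrogate variable and without WT 1, 3 or 9 or any single cKO sample, with adjusted p of at most 0.102.

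**Figure D5:**
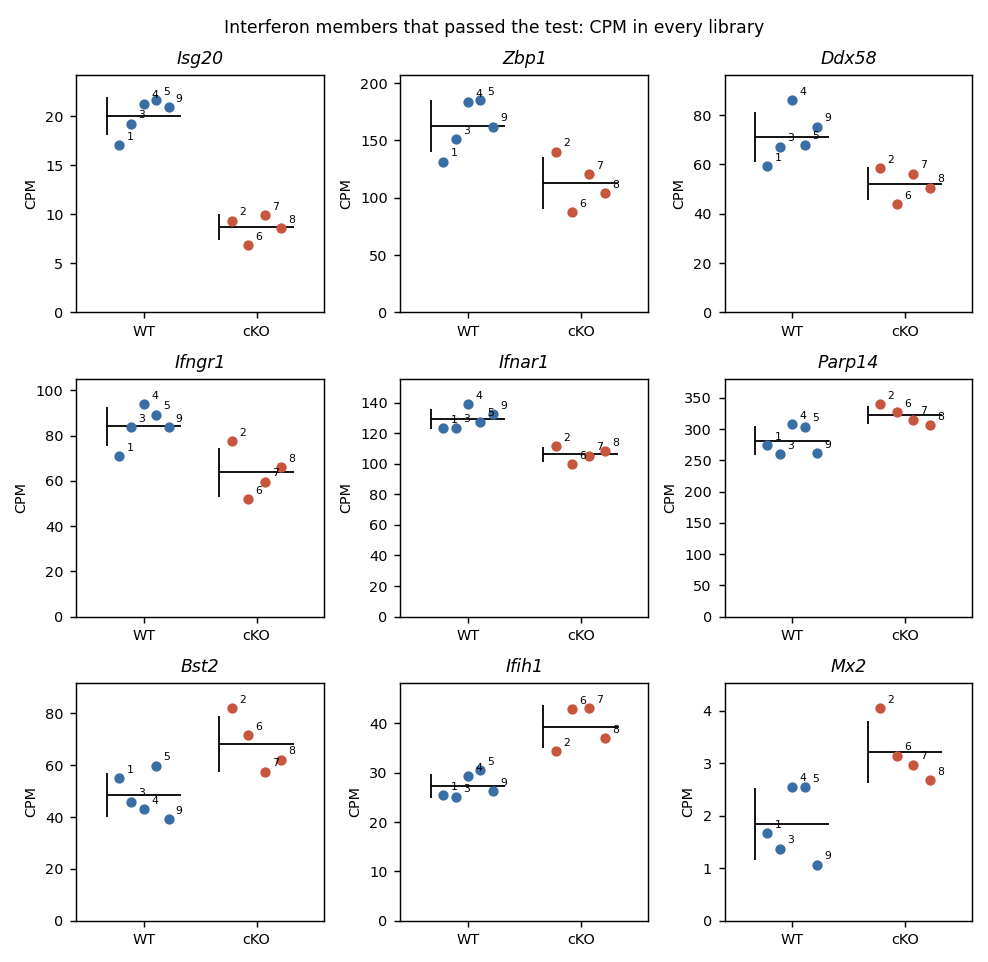
CPM of the 9 called members in each sample, WT and cKO, with the group mean and SD. Isg20, Ifnar1, Ddx58, Ifih1 and Mx2 show no overlap between the genotypes.

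The other 8 effectors did not pass. Mx1, Rsad2 (viperin, which makes a chain-terminating nucleotide) and its neighbour Cmpk2 had log2 fold changes of 0.33, 0.86 and 0.03. Rsad2 was 0.349 to 1.32 CPM in WT and 0.953 to 2.99 CPM in cKO, so that few reads stood behind it. Eif2ak2, the kinase PKR, had a log2 fold change of 0.31 (SE 0.11, edgeR adjusted p = 0.0832), and was called higher with DESeq2 (adjusted p = 0.0432), with no count filter (0.0498) and without WT 5 (0.012). The Schlafen gene Slfn1 had a log2 fold change of -0.43 (SE 0.14, edgeR adjusted p = 0.0631) and was called lower with DESeq2 (adjusted p = 0.0181), with no count filter (0.0289), without WT 1 (0.0214) and without cKO 2 (0.0341). Slfn5 had a log2 fold change of -0.43 (SE 0.17, edgeR adjusted p = 0.104) and was called lower without cKO 2 (adjusted p = 0.0358). The RNA-editing enzyme Adar and Samd9l had log2 fold changes of -0.03 and -0.09.

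None of the 7 other interferon-induced genes passed by edgeR. Ifi44 was higher at an unadjusted p below 0.05, and neither DESeq2 nor limma-voom called any. The GTPase Ifi47, the most abundant member, was 401, 414, 432, 504 and 427 CPM in WT and 530.3, 494, 469.5 and 409 CPM in cKO (log2 fold change 0.13, SE 0.08, edgeR adjusted p = 0.293). The nuclear body protein Sp100 was 195, 214, 274, 261 and 234 CPM in WT and 240.5, 193, 222 and 227 CPM in cKO (log2 fold change -0.09, SE 0.10, edgeR adjusted p = 0.542). Both overlapped between the genotypes, with cKO 2 the highest cKO sample. Ifi44, one of the least abundant at 0.496 to 2.41 CPM in WT and 1.43 to 3.71 CPM in cKO, had the largest positive change (log2 fold change 1.08, SE 0.45, edgeR adjusted p = 0.125), and it was called higher without WT 5 (adjusted p = 0.0284). Ifi35, Rtp4, Xaf1 and Tor3a had log2 fold changes of -0.11, -0.03, 0.04 and 0.18, and Tor3a was called higher without WT 1 (adjusted p = 0.0271). Per kilobase of exon in WT, the 44 tested members spanned 0.181 CPM per kb for Ifi44 and 0.207 for Rsad2 up to 93.0 for Slfn1 and 176 for Ifi47.

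Among the genes that carry the signal from receptor to nucleus, the edgeR calls with all 9 samples were all higher. Of 14 kinases, Stat and Irf genes, 3 were called higher, Irf2 and Irf1 among them, and none lower by edgeR (21.4%, against 7.0% of all genes called higher), with a median log2 fold change of 0.15. At an unadjusted p below 0.05, 3 were higher and 1 lower, as they were with DESeq2, where Jak1 was the lower gene. The count of higher calls was 2 with the robust fit or without cKO 7, and 1 without WT 3, 4 or 9 or cKO 2 or 6. It was 4 with 1 surrogate variable. Without WT 1, 4 were higher and 1 lower, where 1363 of all genes were called higher and 1570 lower, against 1028 and 1296 with every library. Irf2, which competes with Irf1 at the ISRE, rose from 87.6 to 104 CPM without overlap (log2 fold change 0.24, SE 0.04, edgeR adjusted p = 0.0052). Irf1, which activates genes through the ISRE, was 212 CPM on average in WT and 289 in cKO (log2 fold change 0.45, SE 0.13, edgeR adjusted p = 0.0336). The Irf1 call was lost with the robust fit and without WT 3, 4 or 9 or cKO 2 or 6 (adjusted p of at most 0.108). Stat2, at 101 CPM on average in WT and 117 in cKO, and Irf9, at 81.8 CPM on average in WT and 83.8 in cKO, did not pass, nor did Irf7, at 12.6 CPM on average in WT and 14.01 in cKO.

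Of 10 feedback inhibitors, with the member Usp18 among them, 2 were lower and 2 higher (20% in each direction, against 8.82% and 7.0% of all genes). Socs3, which blocks Jak signalling below cytokine receptors, was 92.02, 113, 141, 89.4 and 121 CPM in WT 1, 3, 4, 5 and 9 and 70.7, 37.7, 61.8 and 60.2 CPM in cKO 2, 6, 7 and 8. No cKO sample reached the lowest WT sample (log2 fold change -0.95, SE 0.18, edgeR adjusted p = 0.00548). Socs1, which blocks the kinases of both interferon receptors, was lower at 184 CPM on average in WT and 153 in cKO (log2 fold change -0.27, SE 0.05, edgeR adjusted p = 0.0072). Both calls held in all 17 alternatives. The phosphatase Ptpn6 and the Stat inhibitor Pias2 were called higher with log2 fold changes of 0.26 and 0.14 (edgeR adjusted p = 0.0462 and 0.0477), and no gene of the list was higher without WT 3, 4 or 9 or cKO 6 or 8.

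Among the adaptors and DNA sensors that act beside the member sensors, 5 of 19 tested genes were lower and none higher by edgeR (26.3%, against 8.82% of all genes called lower), with a median log2 fold change of -0.10. None was higher at an unadjusted p below 0.05, with DESeq2 or with limma-voom, and with no count filter 1 of 20 was. Tmem173, the adaptor STING of the cGAS pathway, was 234, 244, 249.8, 243 and 237 CPM in WT 1, 3, 4, 5 and 9 and 201, 189.7, 196 and 192 CPM in cKO 2, 6, 7 and 8. All cKO samples were below all WT samples (log2 fold change -0.31, SE 0.03, edgeR adjusted p = 0.000282). The endosomal Toll-like receptor Tlr9 (log2 fold change -0.86, adjusted p = 0.0396), its chaperone Unc93b1 (-0.41, 0.0145) and its adaptor Myd88 (-0.17, 0.0201) were lower. So was the inflammasome sensor Aim2 (-0.36, 0.0214). Tlr9 was low, at 1.40 CPM on average in WT and 0.782 in cKO, and overlapped between the genotypes. Tlr7 of the same list did not pass (log2 fold change -0.011, edgeR adjusted p = 0.966). Tlr3 was below the filter and was not tested, at 0.0429 to 0.116 CPM in WT and 0.207 to 0.380 CPM in cKO. Unc93b1 and Tmem173 stayed called in all 17 alternatives. Without cKO 8 the lower calls numbered 2, and without WT 3 or cKO 7 they numbered 3. The Tlr9 call was also lost with 1 surrogate variable and without WT 1 or 9 or cKO 2 or 6 (adjusted p of at most 0.121).

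Outside the members, 62 further interferon-stimulated genes were found in the table. Of 52 tested, 3 were higher and 4 lower (13.5% called, against 15.8% of all genes), with a median log2 fold change of 0.08 (Stat2, Irf7 and Irf9 are among the genes that stand on this list as well as among the factors above). Gca (log2 fold change 0.91, SE 0.17, edgeR adjusted p = 0.00608) and Ifi211 (log2 fold change 1.32, SE 0.34, edgeR adjusted p = 0.0254) were among the higher genes. Gca, a calcium-binding protein at 0.848 CPM on average in WT and 1.59 in cKO, is the gene next to the member Ifih1 on chromosome 2. The lower genes were Ifit1bl1 (log2 fold change -1.27, from 14.5 to 6.003 CPM), Epsti1 (-0.60), Phf11b (-0.59) and Slfn9 (-0.16), with edgeR adjusted p of 0.00765, 0.00717, 0.0193 and 0.0342. Gca, Ifit1bl1 and Epsti1 held in all 17 alternatives. The other calls did not: Ifi211 was lost without WT 3, WT 4 or cKO 6 (adjusted p of at most 0.081), Phf11b without cKO 6 or 8 (0.064), and Slfn9 with upper-quartile scaling, with no filter and without WT 1, 3, 4 or 5 or cKO 2, 6 or 7 (0.0911). With 1 library left out, 1 to 7 of the list were higher and 2 to 5 lower.

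Markers of other cell types were set beside the members. The 4 natural killer cell markers summed to 7.10 to 19.8 CPM in WT and 13.1 to 49.1 CPM in cKO, mostly Eomes (10.9 CPM on average in WT and 20.4 in cKO) and Klrk1 (1.36 CPM on average in WT and 3.94 in cKO). Neither passed after adjustment, and both were higher at an unadjusted p below 0.05. In both, cKO 2 was the highest sample, at 38.97 CPM for Eomes and 9.36 CPM for Klrk1, and without it the cKO means were 14.2 and 2.14 CPM. Ncr1 and Klrb1c were below the filter and were not tested. Ncr1 was 0.03196 CPM on average in WT and 0.0561 in cKO. Klrb1c was 0.0382 to 0.221 CPM in WT and highest in cKO 2 as well, at 0.759 CPM, against 0.0414, 0.240 and 0.0447 CPM in cKO 6, 7 and 8. Macrophage and monocyte markers summed to 13.5 to 17.9 CPM in WT and 14.2 to 18.4 CPM in cKO, mostly Csf1r (14.3 CPM on average in WT and 15.5 in cKO). Of the same list, Itgam was called lower without overlap, at 1.34 CPM on average in WT and 0.373 in cKO (log2 fold change -1.82, SE 0.29, edgeR adjusted p = 0.00297). The conventional dendritic cell markers summed to 2.21 to 3.605 and 2.74 to 3.71 CPM. The part of any of these cells in the members' levels was not tested.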

How the data were processed

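Lymph node CD4+ T cells of 5 WT and 4 cKO samples were profiled with a kit that selects mRNA and marks strand, per the labels' protocols. The authors deposited 1 table of raw counts per Ensembl gene ID. Base calling used bcl2fastq 2.17 and the build was mm10, per the submitters' processing notes. For the aligner, the counting tool, its use of strand and its annotation, the entry is the same: not given in the sources used here. All 9 value columns were matched to samples by name, with 0 left over. Symbols and mm10 positions came from GENCODE M21 (37607 of 39017 IDs matched).

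Counts were tested with edgeR 4.0.16 (R 4.3.3): filterByExpr, TMM scaling, the quasi-likelihood F test, no covariate, Benjamini-Hochberg adjustment over 14693 genes, two-sided, threshold 0.05. Library totals were 20587482 to 26387488 counts, and the biological coefficient of variation was 8.04%. No 2 samples of a genotype agreed within sampling noise (chi-square per gene of 3.49 to 22.0). The SE is the absolute log2 fold change over the square root of F. The script was tested on simulated data.

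The members and lists were chosen with earlier results of these data known, so no test over the list was made. Values in each sample are given for the receptors, for up to 4 called members of a role by adjusted p (where none, the 2 most abundant) and for members without overlap; other genes are given by level or fold change. Alternatives were DESeq2 1.42.0, limma-voom (limma 3.58.1), DESeq2 size factors or upper-quartile scaling in edgeR, no filter, at least 1 CPM in 4 samples, the robust fit, 1 surrogate variable (sva 3.50.0) and leaving out each sample. Of the pathway lists, 1 gene enters the counts and is not reported here.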

Additional observations from a re-analysis of the deposited data

Results flagged for a closer look

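In 7 of the 90 groups examined (the 44 tested members and Kdm6a, in each genotype), 1 sample lay far from the others by Dixon's test at the 95% level, where chance flags about 1 in 20 groups. In 6 of the 7, the sample was cKO 2 and it was high. Usp18 was 18.5 CPM in cKO 2 and 8.90 to 9.56 CPM in the other 3 cKO samples. Eif2ak2 was 119 CPM there against 100.5 to 101.7 CPM, and Parp9 was 188 CPM against 146.9 to 151.6 CPM. In the Oas family, Oas2 was 4.47 CPM against 1.82 to 2.15 CPM, Oasl1 was 2.66 CPM against 1.15 to 1.37 CPM, and Oasl2 was 6.24 CPM against 4.11 to 4.42 CPM. The seventh was Ifi203, at 146 CPM in cKO 7 against 120.3 to 124.5 CPM in the other cKO samples. None of these 7 genes was called between the genotypes by edgeR, and the cause of the flags was not tested.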

How the results depend on the processing

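No paired analysis was possible because each replicate number is used by only 1 sample. Over 17 alternatives, 668 of 748 values for the 44 tested members kept their direction and side of the threshold. With 1 surrogate variable, 2 members were called higher. With 1 library left out, 1 to 8 members were higher (1 without cKO 2, 8 without WT 5) and 2 to 9 lower, their median log2 fold change was -0.04 to 0.18, and 531 to 1363 genes were higher and 732 to 1570 lower. With upper-quartile scaling, 1265 genes were higher and 1068 lower (54.2% of calls higher, against 44.2%). The cause of these shifts was not tested.

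The sign of 9 members that were not called turned in some setting. With 1 surrogate variable, the log2 fold change was -0.15 for Oas1a, -0.027 for Oas2, 0.12 for Rtp4 and 0.0099 for Adar. Oas2 was -0.00075 with no filter and -0.014 with DESeq2, and Rtp4 was 0.0024 with limma-voom. With 1 library left out it was -0.20 to 0.40 for Ifit3b, -0.33 to 0.24 for Oas1a, -0.40 to 0.19 for Oas2, -0.22 to 0.14 for Rtp4, -0.10 to 0.18 for Xaf1, -0.042 to 0.30 for Dhx58, -0.18 to 0.027 for Samd9l, -0.066 to 0.0097 for Adar and -0.17 to 0.18 for Cmpk2. Oas1a, Oas2 and Ifit3b were under 5 CPM in every sample.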
